A study of Homo sapiens with 36 samples.

Results

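K562 cells kept for 24 h in 1% oxygen were compared with K562 cells kept for 24 h in 21% oxygen, the level of an ordinary incubator. The comparison uses 6 of the 36 libraries of the study, 3 for each oxygen level. A gene was tested when its mean over these 6 libraries was at least 1 FPKM (fragments scaled by transcript length and by the size of the library), which 10354 of the 21950 genes in the table met. The lowest mean among genes tested was 1.001 FPKM and the highest among genes left out was 0.9999 FPKM. K562 is an established human erythroleukemia line with erythroid features. All cells were grown in DMEM in 6-well plates, and plates of each oxygen level stood in an incubator at that level, so that oxygen and incubator cannot be told apart. The study also held cells in 5% oxygen and sampled 6 h, 24 h, 3 days and 6 days. The only passage was at 3 days, after the samples described here were taken. RNA of polyadenylated transcripts was made into libraries with the Smart-seq2 method and sequenced from both ends. The labels name no drug and no genetic change in any group. Beside the 6 libraries, the 3 libraries of 5% oxygen at 24 h and the 6 libraries of 1% and 21% oxygen at 6 h entered tests, and the remaining libraries give levels of a few genes over time. The labels do not say that replicates came from separate cultures, so p-values measure the spread between these samples, which may be technical. RNA was taken from whole cultures, in which fewer cells of a kind and less RNA per cell cannot be told apart.

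Cells sense oxygen through prolyl hydroxylases (EGLN1, EGLN2 and EGLN3), which use oxygen to mark the alpha subunits of the hypoxia-inducible factors (HIF1A and EPAS1) for destruction through the VHL ubiquitin ligase. When oxygen is short, the alpha subunits persist, pair with ARNT and bind hypoxia response elements near genes of glycolysis, mitophagy, collagen modification and histone demethylation. Several of the sensors are themselves targets, which closes a feedback loop. In red cell precursors the same factors also act on iron uptake.

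The libraries were not alike in scale. The FPKM of all genes summed to between 642351 and 721702 in the 3 libraries of 1% oxygen and to 780267, 900700 and 1171415 in replicates 1, 2 and 3 of 21% oxygen. Replicate 3 of 21% oxygen had the fewest genes above 0 (14512, against 16102 to 17003 in the other 5), and ribosomal protein genes made up 36.6% of its total, against 26.1% to 30.4% in those 5. Over genes with a mean under 0.2 FPKM, the most frequent ratio of its values to those of replicate 1 of 1% oxygen was 4.03. For replicates 1 and 2 of 21% oxygen that ratio was 1.4 and 1.59. Taken as the FPKM that 1 fragment gives, the ratio makes replicate 3 the shallowest library, although it also carries the FPKM scale of each library. The depth in reads is otherwise unknown. Each change below was therefore also computed without replicate 3 of 21% oxygen. The K562 markers fixed for a check of identity were all present: 9 of 9 were tested, among them HBZ (4630, 5925 and 8973 FPKM in 21% oxygen). Of 17 myeloid and lymphoid markers, 4 passed the level filter, 0 were higher and CD33 was lower in 1% oxygen (-0.45), and the list summed to 108.2 to 149.1 FPKM in 21% and 136.2 to 160.9 FPKM in 1% oxygen. ELANE and GNLY were listed at 0 throughout, and 1 of 10 stromal and endothelial markers, COL1A2, passed the filter. The part of these differences in the results was not tested.

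In 1% oxygen, 1560 genes passed an adjusted p under 0.05 (limma on log2(FPKM + 1), Benjamini-Hochberg over the 10354 genes), 923 higher and 637 lower than in 21% oxygen, which is 15.1%, 8.91% and 6.15% of the genes tested. The median difference over all genes was -0.01 on the log2 scale. Differences on this scale understate the change of genes with low FPKM. Without replicate 3 of 21% oxygen, 2088 genes passed (20.2%), 1087 higher (10.5%) and 1001 lower (9.67%), and 889 of the 923 higher genes and 609 of the 637 lower ones were called again in the same direction. The counts were smaller without other libraries: 561 genes without replicate 2 of 21% oxygen, and 346, 545 and 372 genes without replicates 1, 2 and 3 of 1% oxygen. They were larger, 2391 genes, without replicate 1 of 21% oxygen. The direction of small differences depended on scale. With every library rescaled to the same total, the median over all genes moved to 0.38, and 1819 genes were higher and 83 lower. Of the genes that all 18 alternatives tested, 190 were called higher and 2 lower (DDIT3 and RWDD1, the second named after its values were seen) in each of them.

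Promoters of some strongly raised genes, established targets of the hypoxia-inducible factors, were searched for the core of the hypoxia response element. Those of the 4 genes with a match are shown. Each window runs from 250 bases before to 50 bases after the annotated start (RefSeq, GRCh38.p14), 5′ to 3′ on the strand of the gene. Capitals mark ACGTG or GCGTG, on either strand, so that a match on the opposite strand reads CACGT or CACGC. ANKRD37 lies at chr4:185396591-185396890 on the plus strand. ALDOC lies at chr17:28576846-28577145, P4HA1 at chr10:73096817-73097116 and PFKFB4 at chr3:48556754-48557053, all on the minus strand.
ANKRD37: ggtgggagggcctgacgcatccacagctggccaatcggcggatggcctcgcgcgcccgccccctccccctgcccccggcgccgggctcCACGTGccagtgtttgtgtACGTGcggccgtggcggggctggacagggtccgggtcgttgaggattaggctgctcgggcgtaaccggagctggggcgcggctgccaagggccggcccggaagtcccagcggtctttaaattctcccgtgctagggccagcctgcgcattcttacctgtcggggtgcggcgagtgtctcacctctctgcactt
ALDOC: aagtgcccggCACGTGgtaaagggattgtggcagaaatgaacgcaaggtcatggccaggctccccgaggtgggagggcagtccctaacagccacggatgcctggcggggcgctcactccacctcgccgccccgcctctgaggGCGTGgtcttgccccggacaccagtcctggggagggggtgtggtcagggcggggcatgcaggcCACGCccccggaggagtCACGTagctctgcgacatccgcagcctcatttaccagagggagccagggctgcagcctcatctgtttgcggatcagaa
P4HA1: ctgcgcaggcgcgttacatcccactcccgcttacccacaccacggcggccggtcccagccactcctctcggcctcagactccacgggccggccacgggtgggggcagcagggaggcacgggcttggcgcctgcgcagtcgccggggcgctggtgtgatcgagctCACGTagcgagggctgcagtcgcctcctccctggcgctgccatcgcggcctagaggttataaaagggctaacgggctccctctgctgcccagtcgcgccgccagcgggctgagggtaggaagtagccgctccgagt
PFKFB4: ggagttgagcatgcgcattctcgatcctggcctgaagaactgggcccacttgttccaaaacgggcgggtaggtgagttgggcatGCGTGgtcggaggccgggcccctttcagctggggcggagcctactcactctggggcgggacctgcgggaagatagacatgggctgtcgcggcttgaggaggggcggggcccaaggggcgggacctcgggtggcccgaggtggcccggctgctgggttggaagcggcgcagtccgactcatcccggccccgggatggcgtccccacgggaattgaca
The ANKRD37 window held 3 matches, 2 of which overlap as a palindrome, and the ALDOC window held 5, with one such overlapping pair. P4HA1 and PFKFB4 held 1 match each. The windows of EGLN3 and PDK1, which rose as strongly, were also searched, held no match and are not shown. Such matches were common in general: either word was in 65.5% of the promoters of all genes tested (4988 of 7621 with a promoter in the table), in 63.4% of those of the higher genes (438 of 691) and in 72.3% of those of the lower genes (340 of 470). ACGTG alone was in 28.0%, 25.8% and 30.9% of them. For higher genes that did not share the split within 5% oxygen described below, ACGTG was in 31.3%, and for those that did, in 20.2%.

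Among the oxygen sensors and factor subunits, the feedback hydroxylase EGLN3 rose most. It stood at 6.775, 6.774 and 5.037 FPKM in the replicates of 21% oxygen and at 36.77, 34.68 and 35.87 FPKM in those of 1% oxygen. The groups were far apart, with a ratio of means of 5.77 and a log2 difference of 2.36 ± 0.13 (SE, n = 3 per group, adjusted p = 0.000111), which was 2.24 without replicate 3 of 21% oxygen. EGLN1, the main hydroxylase of HIF1A in most cells, rose by less, from 2.588, 2.39 and 2.86 FPKM to 4.919, 5.488 and 4.619 FPKM (log2 difference 0.73, adjusted p = 0.0101). EPAS1, which encodes the HIF-2 alpha subunit, rose from 2.388 to 2.561 FPKM in 21% oxygen to 3.524 to 3.977 FPKM in 1% oxygen (0.47, adjusted p = 0.0405). The RNA of HIF1A did not pass the test: 13.56, 11.73 and 6.523 FPKM in 21% and 11.68, 10.55 and 9.48 FPKM in 1% oxygen, a difference of 0.05 with the lowest value in replicate 3 of 21% oxygen. Without that library the difference was -0.24 (adjusted p = 0.197). ARNT (0.19) and VHL (0.10) also did not pass, and TCEB1, elongin C of the VHL ligase, was lower (-0.53, adjusted p = 0.0454) with all 3 of its values in 1% oxygen below the lowest in 21% oxygen. In all, 3 of the 12 tested sensors and subunits rose and 1 fell, and without replicate 3 of 21% oxygen 3 rose and 3 fell. Over all genes tested 8.91% were higher and 6.15% lower, and 10.5% and 9.67% without that library. With every library rescaled to the same total 4 rose and 0 fell, with a median of 0.56 against 0.38 over all genes. After quantile normalization 2 rose and 0 fell.

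Part of the glycolysis genes rose. Of 21 tested genes of glucose uptake and glycolysis, 10 rose and none fell, with a median log2 difference of 0.46 against -0.01 over all genes. Without replicate 3 of 21% oxygen 14 rose. The shares higher over all genes tested were 8.91% and, without that library, 10.5%. The largest rise was in PFKFB4, which makes fructose-2,6-bisphosphate, the activator of phosphofructokinase. It stood at 8.013, 6.426 and 5.829 FPKM in 21% and at 31.46, 32.42 and 35.02 FPKM in 1% oxygen (log2 difference 2.14 ± 0.13, adjusted p = 0.000111). The aldolase gene ALDOC stood at 26.55, 27.28 and 35.47 FPKM in 21% and at 114.3, 110.4 and 122.2 FPKM in 1% oxygen (1.93, adjusted p = 0.000148). Both genes thus had every library of 1% oxygen at more than 3 times the highest library of 21% oxygen. HK2, the hexokinase that traps glucose in the cell, rose from 11.05, 8.444 and 5.497 FPKM to 22.37, 22.43 and 20.48 FPKM (1.33, adjusted p = 0.00547). ENO2, the neuronal form of enolase, rose from 4.065 to 4.401 FPKM to 11.01 to 11.75 FPKM (1.24). LDHA, which turns pyruvate into lactate, rose from 1194, 1161 and 1397 FPKM to 2488, 2546 and 2393 FPKM (0.99, adjusted p = 0.00786). The groups did not overlap for any of these 3 genes. The glucose transporter SLC2A3 rose (0.79, adjusted p = 0.00434), whereas its relative SLC2A1, the more abundant of the pair per length at 45.66 to 56 FPKM in 21% oxygen, differed by 0.30 (adjusted p = 0.088). PGK1, the first ATP-making enzyme of the pathway, rose by 0.53 (adjusted p = 0.0312). ALDOA, far more abundant per length than ALDOC, stood at 1811, 1762 and 2232 FPKM in 21% and 2954, 2943 and 2925 FPKM in 1% oxygen. It missed the threshold with all libraries (0.61, adjusted p = 0.0542) and passed it without replicate 3 of 21% oxygen (0.72, adjusted p = 0.00188). PFKFB3, a relative of PFKFB4, differed by 0.44 (adjusted p = 0.0503). SLC16A3, the lactate exporter MCT4, was low in 21% oxygen (0.4094, 0.2916 and 0.1474 FPKM) and rose to 2.268, 2.237 and 2.336 FPKM (1.36, adjusted p = 0.00136).

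Single genes of pyruvate control and mitochondrial turnover rose. PDK1, the kinase that shuts pyruvate dehydrogenase, stood at 5.596, 4.451 and 1.91 FPKM in 21% and at 19.29, 22.17 and 22.21 FPKM in 1% oxygen. Its lowest value was again in replicate 3 of 21% oxygen, and the log2 difference of 2.23 ± 0.27 (adjusted p = 0.00207) was 1.89 without it (adjusted p = 0.000113). PDK1 was the one gene that rose of the 10 tested genes of pyruvate dehydrogenase control, beside 8.91% of all genes tested. MPC1 and MPC2, the subunits of the mitochondrial pyruvate carrier, were lower by -0.50 and -0.48 (adjusted p = 0.043 and 0.0445), differences that were -0.04 and -0.03 with every library rescaled to the same total. BNIP3 and BNIP3L, outer membrane receptors that mark mitochondria for autophagy, both rose. BNIP3 stood at 72.53, 76.42 and 89.57 FPKM in 21% and at 182.3, 195.6 and 179.4 FPKM in 1% oxygen (1.22, adjusted p = 0.000797). BNIP3L stood at 23.55, 24.46 and 21.57 FPKM and at 63.61, 67.29 and 66.67 FPKM (1.47, adjusted p = 0.000148). FUNDC1, another mitophagy receptor, was lower (-0.50, adjusted p = 0.044), and it was -0.05 with libraries rescaled to the same total. WIPI1, a protein of the forming autophagosome, was the other of 3 raised genes among the 15 tested in this group (0.99).

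Some other enzymes that use molecular oxygen were raised too, beside 8.91% of all genes tested, whose median was -0.01. Of 6 tested collagen prolyl and lysyl hydroxylases 4 rose and none fell, with a median of 0.81. P4HA1, the catalytic subunit of collagen prolyl 4-hydroxylase, stood at 26.47, 22.97 and 24.92 FPKM in 21% and at 83.37, 83.22 and 90.69 FPKM in 1% oxygen (1.75 ± 0.10, adjusted p = 0.000111). P4HA2 (0.81) and the lysyl hydroxylase PLOD1 (0.80) rose less, and the prolyl 3-hydroxylase LEPRE1 rose by 1.66. LEPRE1 was unlike the others in 5% oxygen, where its replicates stood at 6.873, 16.24 and 26.81 FPKM. Of 15 tested JmjC histone demethylases and TET enzymes 5 rose and none fell, with a median of 0.47. The H3K9 demethylase KDM3A led them, at 6.318, 6.232 and 3.64 FPKM in 21% and 18.74, 19.45 and 17.67 FPKM in 1% oxygen (1.65, adjusted p = 0.00137). KDM4C (0.95), KDM5C (0.58), TET2 (0.55) and TET3 (0.53, named after its values were seen) were the others. TET2 did not pass without replicate 3 of 21% oxygen (0.43, adjusted p = 0.0521). Of the 5 raised genes only KDM3A passed in every alternative that tested it. After quantile normalization 2 of the 15 rose, with a median of 0.30, and with libraries rescaled to the same total 10 rose. In 1% against 5% oxygen 1 of 16 tested was higher.

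**Figure D1:**
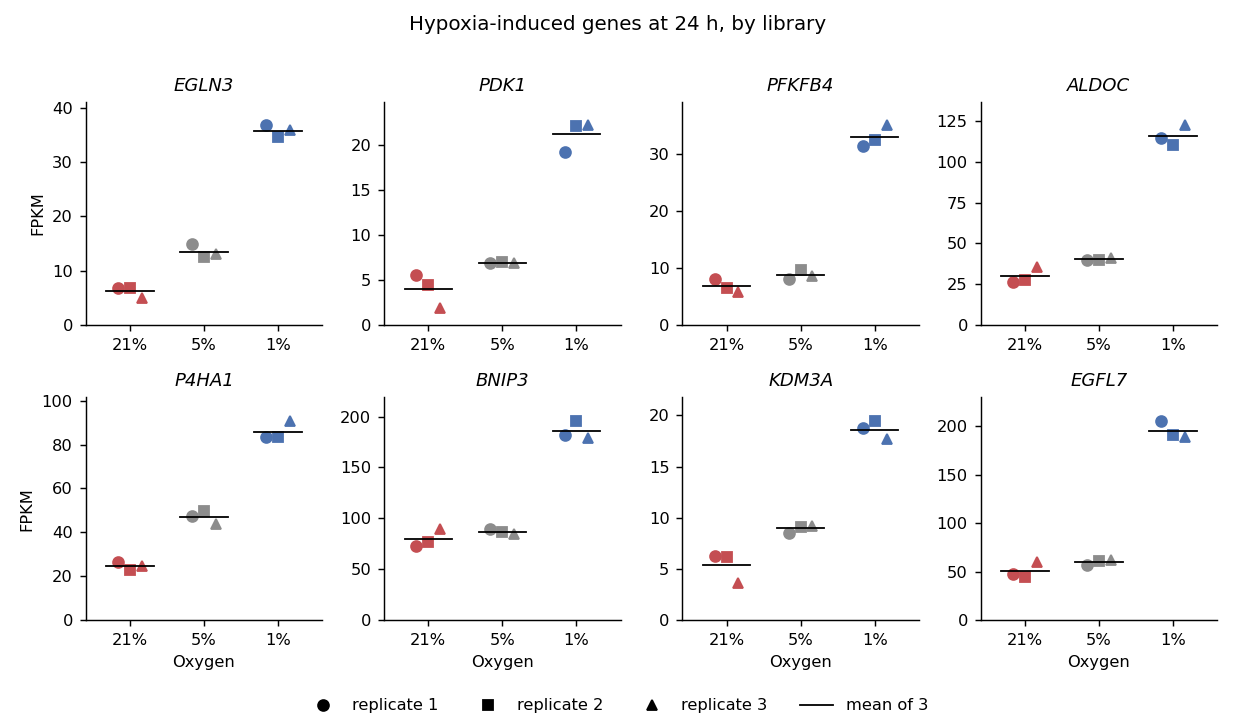
FPKM of 8 genes at 24 h in each library, on a linear axis from 0 (vertical) against oxygen level (horizontal); symbols are replicates 1 to 3 and lines are means of 3. In all 8 genes the 3 libraries of 1% oxygen sit above every library of 5% and 21% oxygen, EGLN3 for example at 34.68 to 36.77 FPKM.

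Outside these pathways, 15 of 24 tested genes on a list of other hypoxia-induced genes rose and none fell, with a median of 0.65, and without replicate 3 of 21% oxygen 18 rose. The list was drawn up with earlier results of these data known, so its direction is not independent evidence. Over all genes tested 8.91% were higher, and 10.5% without replicate 3 of 21% oxygen. ANKRD37, an ankyrin repeat protein, stood at 0.9454, 0.459 and 2.341 FPKM in 21% and at 11.15, 13.28 and 11.47 FPKM in 1% oxygen (2.61 ± 0.27, adjusted p = 0.00106). BHLHE40, a transcriptional repressor of the clock and of lipid genes, stood at 13.47, 12.76 and 12.94 FPKM and at 45.87, 46.42 and 43.95 FPKM (1.72, adjusted p = 0.000111). The replicates of BHLHE40 lay close together in both groups. EGFL7, a secreted vascular factor, rose from 47.43, 44.3 and 59.94 FPKM to 205.5, 191 and 188.7 FPKM (1.94, adjusted p = 0.000148). The fucosyltransferase FUT11 (1.18), the lamin-binding NARF (0.80) and DDIT4, an inhibitor of mTORC1 (0.71), rose as well. Some familiar targets did not move or were hardly expressed. VEGFA, the vascular growth factor, stood at 3.395, 3.511 and 4.1 FPKM in 21% and 3.099, 3.18 and 3.629 FPKM in 1% oxygen (-0.12, adjusted p = 0.545), with overlapping groups. The MYC antagonist MXI1 differed by -0.13. CA9, carbonic anhydrase IX, was listed at 0 in the 3 libraries of 21% oxygen and at 0.8487, 0.3358 and 1.238 FPKM in 1% oxygen. It stayed under the level filter and was not tested, as did ADM and NDRG1.

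The 3 libraries of 5% oxygen at 24 h show where the response to 1% stands between levels. Against 5% oxygen, 146 of 10412 genes (1.4%) passed, 125 higher (1.2%) and 21 lower (0.202%) in 1% oxygen. This comparison shares the 1% libraries with the first, so values are given side by side only. EGLN3 stood at 14.86, 12.53 and 13.06 FPKM in 5% oxygen, above 21% and below 1% oxygen, with 1% higher by 1.35 (adjusted p = 0.000172). PFKFB4 stood at 8.072, 9.601 and 8.528 FPKM, and 1% was higher by 1.80 (adjusted p = 3.49e-05) against 2.14 over 21% oxygen. Its 5% libraries sit just above the highest 21% library. EGFL7 (57.29, 60.94 and 62.42 FPKM) and ALDOC (39.7, 39.71 and 40.98 FPKM) were likewise close to 21% oxygen, with 1% higher by 1.68 and 1.5. P4HA1 was instead midway, at 47.69, 49.64 and 43.8 FPKM, and 1% was higher by 0.85 (adjusted p = 0.00207). Of the glycolysis list, 11 of 21 genes were higher in 1% than in 5% oxygen and none lower. Of the other hypoxia-induced genes, 10 of 25 were higher and none lower. The cold-inducible RNA-binding protein RBM3 showed another order. It stood at 74.62, 72.51 and 68.44 FPKM in 5% oxygen, at 173.2, 182.3 and 163.1 FPKM in 1% and at 137.1, 135.3 and 158.6 FPKM in 21% oxygen. The level in 5% oxygen was thus the lowest, with 1% higher by 1.25 (adjusted p = 0.000129), while 1% and 21% differed by 0.27 (adjusted p = 0.128). Its relative CIRBP also differed between 1% and 5% oxygen (0.53, adjusted p = 0.0202). Few genes were lower in 1% than in 5% oxygen, among them HSPA1A (-0.67, adjusted p = 0.0301) and CHORDC1 (-0.66, adjusted p = 0.0106), both of the heat shock system. HSPA1A has a near-identical copy with which it can share reads, so its values are uncertain. Without replicate 2 of 5% oxygen 26 genes passed, and without replicates 1, 2 and 3 of 1% oxygen 19, 25 and 46.

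A different set of genes rose strongly in 1% oxygen and was split between the 5% libraries. IER2, an immediate early gene of growth factor signalling, stood at 7.95, 6.481 and 3.625 FPKM in 21% and at 58.06, 44.52 and 57.03 FPKM in 1% oxygen (2.99 ± 0.23, adjusted p = 0.000342). In 5% oxygen it stood at 8.771 FPKM in replicate 1, 31.16 in replicate 2 and 52.04 in replicate 3. Replicate 1 was thus near 21% oxygen and replicate 3 within the range of 1% oxygen. The phosphatase DUSP1 stood at 1.478, 0.813 and 0.1468 FPKM in 21%, 1.488, 7.919 and 6.775 FPKM in 5% and 14.38, 10.29 and 12.66 FPKM in 1% oxygen (2.95). SDHAF1, an assembly factor of succinate dehydrogenase, stood at 5.929, 5.078 and 5.404 FPKM in 21%, 6.43, 27.93 and 50.65 FPKM in 5% and 46.94, 32.36 and 45.67 FPKM in 1% oxygen (2.70). GP1BB, a subunit of the platelet receptor for von Willebrand factor, stood at 1.753, 3.689 and 7.905 FPKM, at 2.139, 22.07 and 82.31 FPKM and at 101.1, 42.65 and 126.5 FPKM in the same order (4.09). Reads of GP1BB can also be assigned to the read-through gene SEPT5-GP1BB, so its level is uncertain. In each of these genes replicate 1 of 5% oxygen lay far below replicates 2 and 3. The pattern was shared by JUNB, a subunit of AP-1 (2.27), the pseudogene ROCK1P1 (2.92, which can share reads with its parent ROCK1), the kinase DAPK3 (2.43) and the actin-bundling FSCN1 (2.25).

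Genes of several functions were in this set. KLF1, the erythroid master regulator, stood at 11.78, 12.12 and 17.65 FPKM in 21%, 11.88, 24.41 and 54.37 FPKM in 5% and 47.71, 39.7 and 52.46 FPKM in 1% oxygen (1.69, adjusted p = 0.000994). MCM2, a subunit of the replicative helicase, stood at 28.25, 23.54 and 23.18 FPKM, at 26.95, 56.19 and 63.06 FPKM and at 70.42, 68.39 and 70.52 FPKM (1.45). The other helicase subunits, named after their values were seen, did not pass: MCM3 (-0.24), MCM4 (0.04), MCM5 (-0.17), MCM6 (-0.05) and MCM7 (-0.15). CYC1, cytochrome c1 of complex III, stood at 226.5, 168.3 and 178.4 FPKM, at 207.3, 358.7 and 443 FPKM and at 486.7, 424.4 and 475.7 FPKM (1.28). It was the one raised gene of the 42 tested in complexes II to V. MRPS26 of the mitochondrial ribosome (1.74), the folding factor DNAJB11 (1.16), the fatty acid activating ACSL3 (1.68) and TYMS, which makes thymidylate (1.67), were high in the same libraries. The 5% libraries did not enter the comparison of 1% with 21% oxygen, so their spread is a separate measurement. Replicates 2 and 3 of 5% oxygen differed from replicate 1 by at least 2-fold, in the direction of the change in 1% oxygen, in 99 of the 923 higher genes (10.7%), in 1 of the 637 lower genes (0.157%) and in 129 of all 10354 genes (1.25%). Among the 319 genes higher by at least 2-fold, 198 (62.1%) showed within 5% oxygen at least 0.5 of the difference seen between 1% and 21%, a cutoff chosen after values were seen. Over all genes the share was 34.5%. That is not a like baseline, because the cutoff scales with the difference of each gene and is easily met near 0. None of the raised genes of the glycolysis list was among the 198, nor were BNIP3, BNIP3L or KDM3A.

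**Figure D2:**
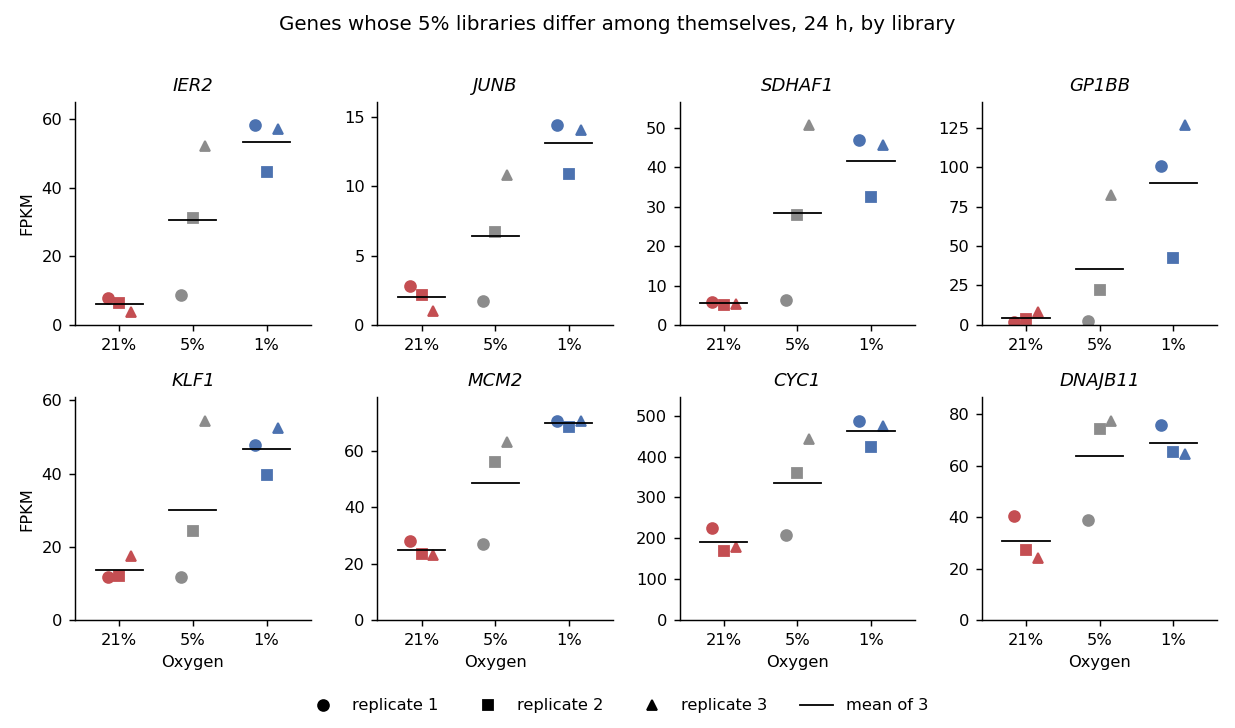
FPKM of 8 genes at 24 h in each library, on a linear axis from 0 (vertical) against oxygen level (horizontal); symbols are replicates 1 to 3 and lines are means of 3. In each gene replicate 1 of 5% oxygen lies near the 21% libraries and replicate 3 far above it, IER2 for example at 8.771 and 52.04 FPKM.

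Other properties also differed among the 5% libraries. Of 394 olfactory receptor genes, which K562 cells are not known to use, 21.6%, 37.3% and 67.3% were above 0 in replicates 1, 2 and 3 of 5% oxygen, 31.0%, 26.6% and 27.9% in 1% oxygen and 20.3%, 18.3% and 13.2% in 21% oxygen. The share in every library of 1% oxygen was below that in replicates 2 and 3 of 5% oxygen. The summed FPKM of a list of 18 single-exon genes was 38.98, 85.45 and 135.2 in 5%, 137, 104.9 and 131.5 in 1% and 35.58, 34 and 35.85 in 21% oxygen, and it includes IER2, SDHAF1 and JUNB. The part of these measures in the result was not tested. The genes called higher had a median GC content of 55.6%, those called lower 45.9% and all genes 48.1%. Among the higher genes the median was 55.2% in those that shared the split within 5% oxygen and 56.0% in those that did not. Of the 21 tested immediate early genes 5 rose (IER2, DUSP1, JUNB, JUN and FOSL1, the last named after its values were seen) and none fell. EGR1 (0.17), IER3 (-0.19) and ZFP36 (-0.17), of the same list and named after their values were seen, did not pass. The median of the list was 0.15, and -0.01 after quantile normalization. Over all genes tested 8.91% were higher.

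**Figure D3:**
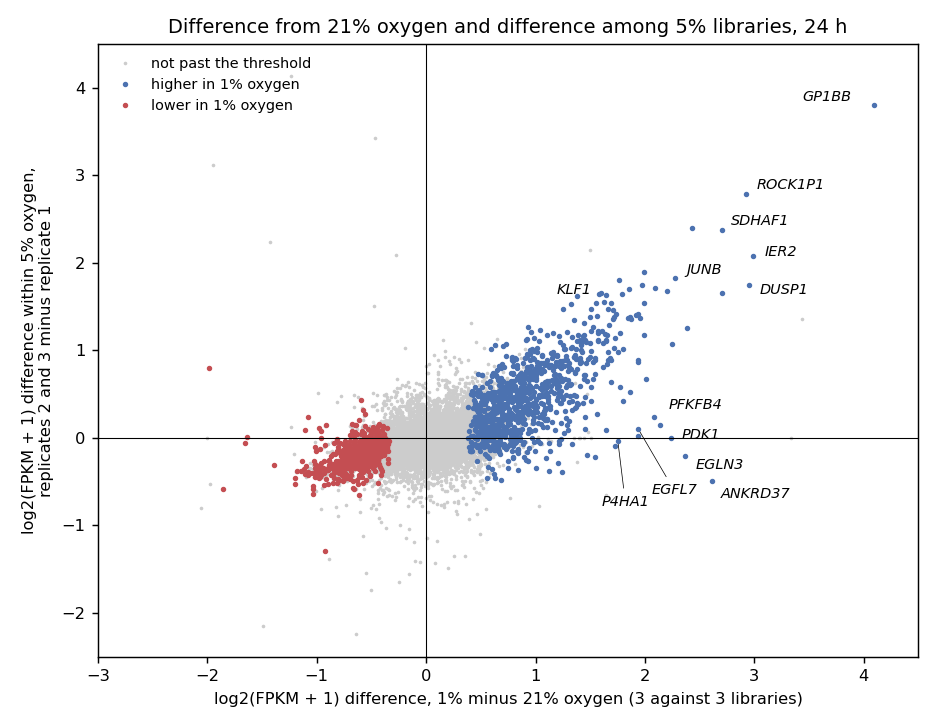
For each gene tested, the log2(FPKM + 1) difference of 1% minus 21% oxygen (horizontal) and the difference of replicates 2 and 3 minus replicate 1 within 5% oxygen (vertical); blue points were higher and red points lower in 1% oxygen, grey points did not pass, and 10 genes lie outside the axes. EGLN3, PDK1, PFKFB4 and P4HA1 sit near 0 on the vertical axis, whereas IER2, DUSP1, SDHAF1 and GP1BB sit between 1.74 and 3.80.

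Genes lower in 1% oxygen were mostly abundant and short. Their median level in 21% oxygen was 76.5 FPKM, against 10.1 over all genes, their median transcript length was 1869 bases, against 3047, and their median difference was -0.56. In 577 of the 637 (90.6%) the highest 21% library was replicate 3, compared with 4824 of all 10354 genes (46.6%). The respiratory chain was among the lists examined. Over all genes tested 6.15% were lower, and 9.67% without replicate 3 of 21% oxygen. Of 41 tested complex I genes 9 fell and 0 rose, with a median of -0.66, and without replicate 3 of 21% oxygen 21 fell, with a median of -0.44. Of 42 genes of complexes II to V 9 fell, with a median of -0.68, and without that library 21 fell. NDUFAF4, an assembly factor of complex I, stood at 60.83, 54.63 and 80.07 FPKM in 21% and 36.5, 38.83 and 34.09 FPKM in 1% oxygen (-0.80, adjusted p = 0.0114). The groups did not overlap, and the difference was -0.65 without replicate 3. The subunits NDUFB6 (-0.84), NDUFB3 (-1.01), COX7A2 (-0.96) and UQCRB (-0.87) fell too. With every library rescaled to the same total, the median of complex I was -0.20 and that of complexes II to V -0.24, while that of all genes was 0.38. In 1% against 5% oxygen the median of complex I was -0.04. The summed FPKM of complex I in 5% oxygen was 12800 in replicate 1, above the 9948 to 12100 of the 1% libraries, and 10700 and 10520 in replicates 2 and 3.

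Genes that make mitochondrial proteins moved with the respiratory chain, beside 6.15% of all genes lower, and 9.67% without replicate 3 of 21% oxygen. Of 74 mitochondrial ribosomal proteins 32 fell and 3 rose, with a median of -0.46, and without replicate 3 of 21% oxygen 49 fell. MRPL1 was steady within groups, at 92.03, 85.12 and 94.81 FPKM in 21% and 56.53, 57.55 and 55.44 FPKM in 1% oxygen (-0.67, adjusted p = 0.0042). MRPL46 fell by 0.81 on the log2 scale. Of 28 genes of mitochondrial import and matrix chaperones 11 fell and none rose. HSPE1, the co-chaperonin of the matrix, stood at 634.8, 809.9 and 1187 FPKM in 21% and at 418.2, 478.2 and 391.9 FPKM in 1% oxygen (-0.99, adjusted p = 0.0266, and -0.74 without replicate 3). The medians of both lists lost their sign or came to 0 when libraries were rescaled to the same total (0.00 and 0.04), still under the 0.38 of all genes. The TCA cycle enzymes moved less, with 4 of 19 lower (IDH3A, SUCLG1, SUCLA2 and PCK2, the last named after its values were seen) and DLST higher. Their median of -0.24 turned to 0.22 under that rescaling.

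Cytosolic translation genes had medians below 0 as well. Of 77 cytosolic ribosomal proteins 4 fell, among them RPL37, RPL32 and RPS26, a share near the 6.15% of all genes, although the median was -0.69. Without replicate 3 of 21% oxygen 36 of 77 fell, with 9.67% of all genes lower, and the median was -0.45. After quantile normalization of the 6 libraries 0 of 77 fell and 1 rose, with a median of -0.117. With libraries rescaled to the same total 12 fell and 1 rose, with a median of -0.225 against 0.38 over all genes. RPS27 stood at 5000, 7139 and 14920 FPKM in the replicates of 21% oxygen and 4035, 4315 and 3585 FPKM in 1% oxygen (-1.03, adjusted p = 0.0952). Replicate 3 was at more than double the next value, and without it the difference was -0.59 (adjusted p = 0.0383). RPL37 stood at 513.1, 754.8 and 1372 FPKM and at 365.2, 415.4 and 347.5 FPKM (-1.11, adjusted p = 0.0461). Against 5% oxygen the median of the list was 0.03. Of 34 ribosome biogenesis genes 13 fell and RRP9 rose, with a median of -0.35. EBNA1BP2 (-0.59), ZNRD1 (-0.82) and UTP14A (-0.49) were among those that fell, and the median was 0.10 with libraries rescaled to the same total. MYC, the factor that drives these genes in growing cells, fell from 124.8, 120.5 and 132.4 FPKM to 92, 87.53 and 86.24 FPKM (-0.50, adjusted p = 0.0155). All 3 of its values in 1% oxygen were below all in 21% and 5% oxygen, and the difference was -0.04 under the rescaling, again below the 0.38 of all genes. MXD3 and MXD1, which compete with MYC for MAX, rose by 1.30 and 0.56, and TXNIP, which restrains glucose uptake, rose by 0.47. MXD3 was higher in replicates 2 and 3 of 5% oxygen (37.46 and 50.24 FPKM) than in replicate 1 (23.48 FPKM).

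**Figure D4:**
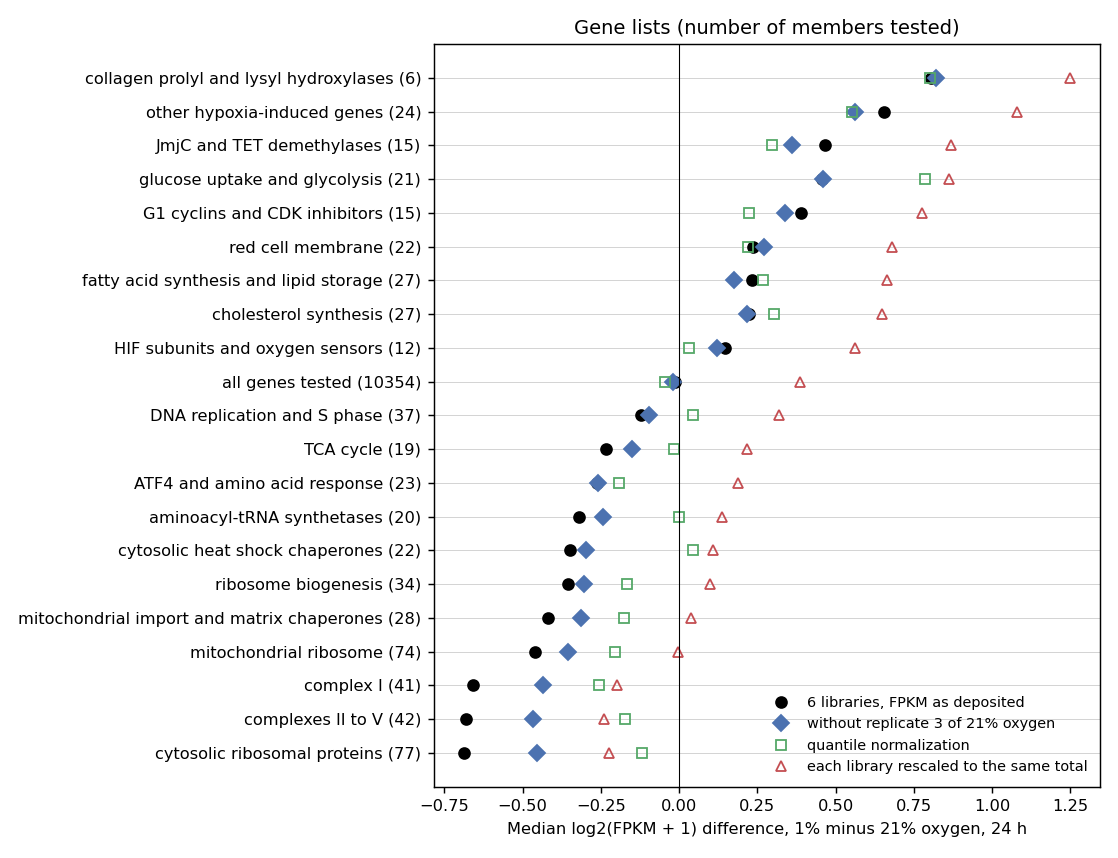
Median log2(FPKM + 1) difference of 1% minus 21% oxygen at 24 h (horizontal) for gene lists (vertical, tested members in brackets), as deposited, without replicate 3 of 21% oxygen, after quantile normalization and with libraries rescaled to the same total. Collagen hydroxylases, other hypoxia-induced genes and glycolysis lie to the right of all genes in the 4 settings, and complex I, complexes II to V and cytosolic ribosomal proteins lie to the left.

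Stress and amino acid genes were examined by list, beside 8.91% of all genes tested higher and 6.15% lower. Without replicate 3 of 21% oxygen these shares were 10.5% and 9.67%. Of 23 tested genes of the ATF4 pathway 7 fell and 4 rose. DDIT3, the stress factor CHOP, stood at 122.6, 122.9 and 160.2 FPKM in 21%, at 96.43, 77.09 and 85.22 FPKM in 5% and at 73.39, 77.72 and 65.43 FPKM in 1% oxygen (-0.89, adjusted p = 0.00541). All of its libraries in 1% oxygen were far below those in 21% oxygen. DDIT4 (0.71), SESN2 (0.90) and the glutamine transporter SLC1A5 (0.84) rose. Of the 4 raised genes 3, SESN2 and SLC1A5 among them, showed the split within 5% oxygen described above. The median of the list was -0.26, and 0.19 with libraries rescaled to the same total. Of 20 aminoacyl-tRNA synthetases 3 fell, SARS, MARS and RARS, with differences of -0.47, -0.37 and -0.36, and without replicate 3 of 21% oxygen 7 fell. The median of -0.32 turned to 0.14 with libraries rescaled to the same total. The signs of MARS and RARS turned with libraries rescaled to the same total (0.09 and 0.10). Of 22 cytosolic heat shock genes 4 fell (CHORDC1, HSPA1A, HSP90AA1 and AHSA1, the last named after its values were seen) and HSPH1 rose, and without replicate 3 of 21% oxygen 13 fell. The median of -0.35 turned to 0.11 with libraries rescaled to the same total, and the difference of HSP90AA1 (-0.50) was 0.01 after quantile normalization. Of 24 NRF2 and antioxidant genes 3 fell, NQO1 (-0.63), TXN (-0.76) and OSGIN1 (-0.74), without replicate 3 of 21% oxygen 8 fell, and the median of -0.30 turned to 0.16 with libraries rescaled to the same total. The chemokine CXCL2 fell from 7.869, 6.323 and 5.538 FPKM to 2.072, 3.437 and 2.114 FPKM (-1.11, adjusted p = 0.00828) and was as low in 5% oxygen (2.225, 3.4 and 1.687 FPKM). The largest falls were in small or repeated RNAs. BCYRN1, a short brain RNA, stood at 994, 1107 and 4161 FPKM in 21% and at 509.7, 519.7 and 547.1 FPKM in 1% oxygen (-1.66, and -1.0 without replicate 3). SNAR-G1 (-1.85), SNHG9 (-1.63) and the ribosomal protein pseudogenes RPL21P28 (-1.39) and RPL13AP5 (-1.20) also fell. The last 2 and SNAR-G1 have near-identical copies with which they can share reads, so their values are uncertain.

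Erythroid genes did not move together, and over all genes tested 8.91% were higher and 6.15% lower. Without replicate 3 of 21% oxygen these shares were 10.5% and 9.67%. The transferrin receptor TFRC, which brings iron into the cell, rose from 221.4, 202.2 and 141.9 FPKM to 388.4, 375.8 and 360.6 FPKM (1.01, adjusted p = 0.00794, and 0.82 without replicate 3). In 5% oxygen it was already at 306, 314.5 and 285.5 FPKM. It was the one raised gene of 18 tested in iron handling, and without replicate 3 of 21% oxygen 2 rose and 2 fell. The glycophorin genes GYPE (-0.74) and GYPB (-0.98, named after its values were seen) fell, and as near relatives they can share reads. Other membrane genes rose, among them the water channel AQP10 (1.69) and the Rh antigen gene RHD (0.76), for a total of 6 higher and 3 lower of 22. Of 9 tested globin genes 1, HBQ1, fell (-0.71, adjusted p = 0.0376), and 3 fell without replicate 3 of 21% oxygen. HBG1 differed by -0.71 (adjusted p = 0.0631) and HBZ by -0.30 (adjusted p = 0.478), and HBG1 can share reads with its near-identical copy HBG2. Of 14 heme synthesis genes 3 rose, the mitochondrial iron importer SLC25A37 (0.67), CPOX (0.89) and UROS (0.53), while ALAS2, the erythroid first enzyme, stood at 47.07, 45.04 and 42.56 FPKM in 21% and 39.56, 38.55 and 60.6 FPKM in 1% oxygen (0.01).

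Several regulators and enzymes of lipid metabolism rose. Of 27 cholesterol genes 7 rose and none fell. INSIG1, which holds the sterol sensor in the endoplasmic reticulum and is also a hypoxia target, rose from 14.88, 14.86 and 12.42 FPKM to 58.96, 50.73 and 59.92 FPKM (1.94, adjusted p = 0.000111). In 5% oxygen it was at 22.37, 32.38 and 53.42 FPKM, the last value within the range of 1% oxygen. The difference of 1% and 5% oxygen did not pass (limma, 0.72, adjusted p = 0.208). SREBF2, the sterol transcription factor, rose by 1.37 and the mevalonate kinase MVK by 0.94. HMGCS1 (0.45, adjusted p = 0.0646) did not pass. Of 27 genes on a list of fatty acid synthesis and storage 7 rose and 1 fell. Among those that rose were ACSL3, ACSS2 (1.37), the desaturase FADS1 (1.10) and CPT2 (0.98), an enzyme of fatty acid oxidation. Of these 7 raised genes 4, ACSL3, ACSS2 and CPT2 among them, showed the split within 5% oxygen, and ACSS2 stood there at 6.024, 9.605 and 15.25 FPKM. In 1% against 5% oxygen (limma), 1 fatty acid gene and 0 cholesterol genes were higher, with medians of 0.01 and -0.01. Cell cycle genes passed in smaller numbers, beside 8.91% higher and 6.15% lower over all genes tested. Of 37 DNA replication genes 2 rose (MCM2 and TYMS) and 2 fell (GINS2 and ORC6). The sign of ORC6 turned under the rescaling to the same total (0.01). Of 29 genes of G2 and mitosis 1 rose, the checkpoint kinase BUB1 (0.71). The group of G1 regulators differed, with 6 of 15 higher and none lower: the pocket proteins RB1 (1.36), RBL1 (1.24) and RBL2 (1.06) and cyclin D1, CCND1 (0.97), were among them. RB1 stood at 5.868, 4.756 and 2.398 FPKM in 21%, at 7.269, 11.66 and 14.24 FPKM in 5% and at 13.7, 11.5 and 11.39 FPKM in 1% oxygen. Its values in 5% oxygen thus also differed between replicate 1 and the other two.

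The response at 24 h was set against that at 6 h by an interaction test, in which the difference of 1% and 21% oxygen at 6 h is subtracted from that at 24 h. Of 10291 genes tested over these 12 libraries, 1091 (10.6%) passed, 455 with a higher (4.42%) and 636 with a lower (6.18%) difference at 24 h. Several targets of the hypoxia-inducible factors had larger differences at 24 h. EGLN3 stood at 4.264 to 6.345 FPKM in 21% and 8.177 to 9.488 FPKM in 1% oxygen at 6 h, and the difference at 24 h was larger by 1.74 (adjusted p = 0.000659). PFKFB4 stood at 5.506 to 6.441 and 6.741 to 7.295 FPKM at 6 h, and its difference was larger by 1.94 (adjusted p = 0.000156). P4HA1 overlapped between the groups at 6 h, at 21.51 to 24.59 FPKM in 21% and 19.41 to 26.25 FPKM in 1% oxygen, and grew by 1.85 (adjusted p = 0.000156). The differences of genes with split 5% libraries also grew, for GP1BB by 4.48, for IER2 by 2.96 and for SDHAF1 by 2.92. IER2 stood at 5.236 to 13.55 FPKM in 21% and 8.515 to 9.788 FPKM in 1% oxygen at 6 h. Later it was not low in 21% oxygen either, at 30.81 to 73.83 FPKM at 3 days and 72.4 to 80.67 FPKM at 6 days, and at 6 days the 1% libraries ranged from 15.19 to 95.83 FPKM. EGLN3 was by contrast at 6.606 to 7.953 FPKM in 21% and 63.58 to 143 FPKM in 1% oxygen at 3 days, and at 8.456 to 12.27 and 86.33 to 89.69 FPKM at 6 days. The 2 levels of oxygen were thus apart at every time for EGLN3 and overlapped for IER2 at all times but 24 h. TFRC gained 0.98 (adjusted p = 0.014). The change for MYC was -0.53 and that for DDIT3 -0.79, the first having stood at 106.2 to 119 FPKM in 21% and 113.8 to 116.1 FPKM in 1% oxygen at 6 h. The count depended on single libraries of either time: 373 and 238 genes passed without replicates 2 and 3 of 21% oxygen at 6 h, 2062 without replicate 1 of 21% oxygen at 24 h, 284, 317 and 237 without replicates 1, 2 and 3 of 1% oxygen at 6 h, and 237, 675 and 239 without those of 1% oxygen at 24 h.

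**Figure D5:**
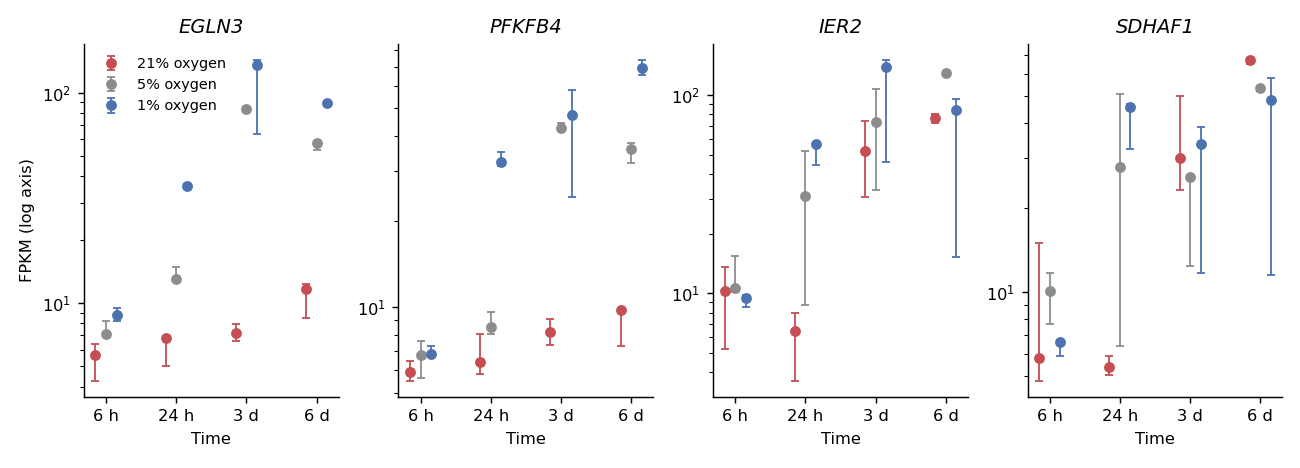
FPKM on a log axis (vertical) of EGLN3, PFKFB4, IER2 and SDHAF1 at 6 h, 24 h, 3 days and 6 days (horizontal) in 21%, 5% and 1% oxygen; points are medians and bars run from the lowest to the highest of 3 libraries. EGLN3 and PFKFB4 stay apart between 1% and 21% oxygen from 24 h on, whereas IER2 in 21% oxygen reaches 72.4 to 80.67 FPKM at 6 days.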

How the data were processed

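Expression was measured by RNA-seq of K562 cells in 36 libraries, of which 6 form the comparison, 9 more enter tests beside it, and the rest give levels over time. The deposited unit is FPKM, which the authors obtained through TopHat, Cuffquant and Cuffnorm of the Cufflinks suite, per the labels' protocols and the submitters' processing notes. The sources used here give no version, genome build or annotation. Each library's values keep the scale the authors gave them, and 0 columns were left without a sample. The depth in reads is unknown. Relative depth came from the most frequent ratio of values between libraries, over genes with a mean under 0.2 FPKM and above 0 in both.

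Values were taken as log2(FPKM + 1), genes with a mean under 1 FPKM were left out, and groups were compared with limma 3.58.1 (trended prior, two-sided, R 4.3.3) with Benjamini-Hochberg adjustment over all genes tested; only the groups compared entered a fit, which left 4 residual degrees of freedom in the first. The fit was tested on simulated data. Tables and figures used Python 3.11.15, pandas 2.3.3 and matplotlib 3.10.9. Transcript length and GC content came from GENCODE 29, matched by symbol for 9511 of 10354 genes, and promoters from RefSeq (GRCh38.p14), matched for 7621.

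The comparison and the gene lists were chosen with earlier results of these data known. Genes named in the text were a fixed set, the 12 largest rises and falls without overlap and at least 5 FPKM, up to 4 members per list by adjusted p, the 5 largest rises and falls of the other comparisons, and the 5 largest differences in FPKM; list members named beyond this rule, including those given as not passing, were named after their values were seen. Alternatives were another pseudocount (0.1), filter, scaling, sample set, weights, replicate block, GC and length correction, and leaving out each library. Some genes that the rule names are not reported here.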

Additional observations from a re-analysis of the deposited data

Results flagged for a closer look

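In 10 genes the difference between 1% and 21% oxygen at 24 h differed from that at 6 h by the interaction test (limma) and was among the 5 largest in its direction with a mean of at least 5 FPKM in a group. Higher at 24 h were GP1BB by 4.48, ROCK1P1 by 3.19, IER2 by 2.96, SDHAF1 by 2.92 and DUSP1 by 2.87 on the log2 scale, with adjusted p between 0.00267 and 0.0127. In all 5 the libraries of 5% oxygen at 24 h were themselves split, with replicate 1 low.

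Lower at 24 h was RPL21P28 by -1.72, and GPR75-ASB3 by -2.41, the second a read-through gene whose reads can belong to ASB3. ZNF32-AS1, an antisense RNA whose reads cannot be told from ZNF32 without strand, had -1.28, and the metallothionein MT2A had -1.07. RNU86 had -13.49. At 6 h it was listed at 0 in every library of 21% oxygen and stood at 1793, 1055 and 1252 FPKM in 1% oxygen. At 24 h it stood at 0, 637.2 and 0 FPKM in 21% oxygen and was listed at 0 in every library of 1% oxygen. Each of these values was thus 0 or at least 637.2 FPKM. The size of a log2 difference from 0 depends on the pseudocount, so that of RNU86 is uncertain.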

How the results depend on the processing

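Of 150 named genes past the threshold in 1% against 21% oxygen, 128 were tested in all 18 alternatives and 44 of these passed in each, and 5 of the 150 changed sign in one: HSP90AA1 with quantile normalization (0.0095), and MARS (0.091), RARS (0.097), ORC6 (0.0105) and PSMD12 (0.0365) with libraries rescaled to the same total (TPM). Genes passing numbered 1560 as reported (923 higher, 637 lower). They were 603 (505, 98) with no filter, 1036 (285 lower) with at least 1.5-fold, 4085 (1739, 2346) with 35 libraries in the fit, 5068 (2580, 2488) with array weights, 1819 higher and 83 lower with TPM, 1032 lower with all 36 libraries and 1321 lower with GC and length correction. Leaving out 1 library gave 346 to 2391 (330 to 1304 higher, 16 to 1087 lower). For 24 h minus 6 h (1091), the counts were 527 without a filter, 642 with 1.5-fold, 590 with TPM, 517 with quantile normalization, 425 and 2234 with 36 and 35 libraries, 2713 with array weights and 237 to 2062 leaving out 1 library. For 1% against 5% oxygen (146), they were 31, 93, 136, 295, 78, 309, 947 and 19 to 170 in the same order. The cause was not tested. In 1 fit the array weights stopped before convergence. Depth limits low genes most in replicate 3 of 21% oxygen.

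With the replicate number as a block, 1137 genes passed in 1% against 21% oxygen (855 higher, 282 lower), 229 in 24 h minus 6 h and 38 in 1% against 5% oxygen. The labels do not say whether equal replicate numbers pair the samples. Same-numbered libraries of 1% and 21% oxygen correlated by 0.09, 0.01 and -0.07 in their deviations from the group means. With only 3 libraries behind each mean, these values cannot decide it.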
